A study of Mus musculus with 12 samples.

Results

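Apoa1, Apoa2, Apoh, Hpx, Itih4 and Alb encode plasma proteins best known as products of the liver, and here they were followed in the mouse ovary. They were taken by gene symbol from the array's annotation, with every probe set kept and the fibrinogen chains left out. All 6 genes were found, with 7 of the 16376 probe sets in the table, Apoa1 having 2 of them and the others 1 each. The members were selected on log2 levels of these same arrays, with the differences between control, stage I and stage II known. The levels of these genes are therefore given as a description, without a test.

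The 12 samples were ovaries of female mice of 23 weeks, taken at the diestrus stage of the cycle. All 12 carried Pgrcre/+, an allele with Cre recombinase at the locus of Pgr, the progesterone receptor gene, so Cre acts where that locus is active and the controls carry it too. The 6 controls had no other allele named and no tumor, while Pgrcre/+PgrBLsL/+ ovaries made up both tumor groups, with 3 samples in stage I and 3 in stage II. Tumor and allele cannot be told apart against the controls, since every ovary with PgrBLsL had a tumor stage. The labels call the arrays biological replicates and do not say whether each held the ovaries of 1 animal, so p-values measure the spread between these samples.

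The groups separated along the first principal component, which held 55.2% of the variance. Stage I replicate 1 lay toward stage II on it, at 9.94 against -4.56 and -6.52 in the other stage I ovaries, and stage II replicate 3 lay farthest out, at 42.2. Control replicates 1 and 4 stood apart from the other controls on the second component, at 17.4 and 19.4 against -7.38 to -0.14. Without these controls the stage II difference was log2 4.41 in Apoh, 3.17 and 3.30 in the Apoa1 probe sets and 0.59 in Itih4, and the stage I difference of Apoh was 2.05.

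Hepatocytes secrete most of the proteins of blood plasma, and a shared set of liver-enriched transcription factors drives their genes. Apoa1 and Apoa2 are the main proteins of high density lipoprotein, the lipoprotein class that enters follicular fluid and brings cholesterol to steroid-producing ovarian cells. Apoh, also called beta-2-glycoprotein I, binds anionic phospholipids and takes part in regulating coagulation. Hpx, hemopexin, binds free heme, Itih4 belongs to the inter-alpha-trypsin inhibitor heavy chains, whose relatives stabilise the hyaluronan matrix around the oocyte, and Alb, albumin, is the main carrier protein of plasma.

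Apoh and Apoa1 were the members with large differences between groups, and Alb, the best known liver plasma protein, overlapped between all groups, as Apoa2 did, so the promoters of these 3 are shown. RefSeq promoter sequences (GRCm38.p6) matched all 6 members, and each line below gives the 250 bases before the annotated start, 5′ to 3′ on the gene's strand, with motif matches in capitals. Apoh lies at chr11:108395047-108395296 (+), Apoa1 at chr9:46228380-46228629 (+) and Alb at chr5:90460620-90460869 (+).
Apoh: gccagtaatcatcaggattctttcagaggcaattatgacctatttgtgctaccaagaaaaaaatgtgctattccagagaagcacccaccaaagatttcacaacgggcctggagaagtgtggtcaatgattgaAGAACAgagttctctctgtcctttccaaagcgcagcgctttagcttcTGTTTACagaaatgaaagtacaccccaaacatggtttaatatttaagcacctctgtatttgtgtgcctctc
Apoa1: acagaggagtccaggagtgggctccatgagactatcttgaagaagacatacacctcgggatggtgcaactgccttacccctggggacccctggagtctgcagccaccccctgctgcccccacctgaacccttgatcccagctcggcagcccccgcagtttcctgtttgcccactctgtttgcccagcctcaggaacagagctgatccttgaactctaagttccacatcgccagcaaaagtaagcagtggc
Alb: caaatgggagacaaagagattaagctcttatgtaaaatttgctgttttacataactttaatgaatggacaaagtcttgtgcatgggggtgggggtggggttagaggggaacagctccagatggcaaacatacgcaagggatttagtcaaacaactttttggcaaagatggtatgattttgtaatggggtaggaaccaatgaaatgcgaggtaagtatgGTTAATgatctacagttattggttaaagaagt

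Both strands were searched for 8 motifs. GTTAAT stood for the liver factor HNF1 and TGTTTAC for the FOXA factors of liver. CAAAGTCCA stood for HNF4, which activates many apolipoprotein genes. TTCNNNGAA stood for STAT3 of interleukin 6 signalling and TTGCGCAA for C/EBP factors. The core of the progesterone receptor element was searched as TGTTCT, its full palindrome by its consensus, and the TATA box as TATAAA. None of these motifs contained another, and none of the matches in these 3 promoters overlapped. Apoh held TGTTTAC from 71 to 65 bases before the start, a word present in 3.17% of all 32851 promoters, and AGAACA, the reverse complement of TGTTCT, from 118 to 113 bases before it, present in 16.1%. Alb held GTTAAT from 32 to 27 bases before the start, a word present in 6.43% of promoters. Apoa1 had 0 matches to the 8 motifs in this window. Among the members not shown, Apoa2 had promoters 1 and 2. Promoter 2 of Apoa2 also held TGTTTAC, from 77 to 71 bases before its start, and TATAAA (12.4% of promoters) from 212 to 207. Itih4 held TTCCGAGAA, a match to TTCNNNGAA (7.02% of promoters), from 51 to 43 bases before its start. Hpx and promoter 1 of Apoa2 had 0 matches. A match is a description of the letters, and Apoh and Apoa1 shared none of these matches.

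Apoh, the phospholipid-binding glycoprotein, was higher in every stage I ovary than in every control and higher again in every stage II ovary. Its log2 levels in the 6 controls ran from 5.22 through a median of 5.58 to 5.99. The stage I ovaries stood at 8.78, 6.97 and 6.77 in replicates 1, 2 and 3, and the stage II ovaries at 10.32, 9.87 and 9.41. No 2 groups overlapped, the lowest stage I ovary lying 0.78 above the highest control. Stage I exceeded control by log2 1.91 ± 0.37 (SE of the fit, n = 3 and 6), a 3.75-fold difference of deposited values, and stage II exceeded control by log2 4.26 ± 0.37, or 19.2-fold. Stage II exceeded stage I by log2 2.36 ± 0.42, or 5.13-fold.

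The stage I ovaries differed among themselves in Apoh. Replicate 1 was 9.05-fold above the control mean, against 2.58-fold and 2.25-fold in replicates 2 and 3. Its SD was 1.11 in stage I, against 0.27 in controls and 0.46 in stage II. Without stage I replicate 1 the stage I difference was log2 1.27, and the stage II difference stayed between 4.04 and 4.49 with each array left out in turn.

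Apoa1, the main protein of high density lipoprotein, was set apart by stage II, with little distance between stage I and control. With its x_at probe set the controls ran from 7.95 through a median of 8.33 to 8.94. Stage I stood at 9.11, 8.73 and 8.91, overlapping the controls, and stage II at 10.76, 11.21 and 12.70 without overlap with either group. Stage II exceeded control by log2 3.21 ± 0.34 (SE), or 9.26-fold, and stage I by 2.64 ± 0.39. The stage I difference from control was log2 0.57 ± 0.34.

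The other probe set of Apoa1, of type a_at, gave nearly the same picture. Its stage II difference from control was log2 3.38 ± 0.37 (SE), or 10.4-fold, with control levels of 7.68 to 8.70 and stage II levels of 10.58, 11.06 and 12.72. Over the 12 arrays both sets of values had a Pearson correlation of 0.999, and on each array they differed by -0.02 to 0.36. In the naming of these probe sets the x marks probes that may also match other transcripts. Stage II replicate 3 held the highest Apoa1 of all arrays, 20.5-fold above the control mean with the x_at probe set, against 5.31-fold and 7.3-fold in replicates 1 and 2. Without that ovary the stage II difference was log2 2.64 (x_at) and 2.75 (a_at).

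**Figure D1:**
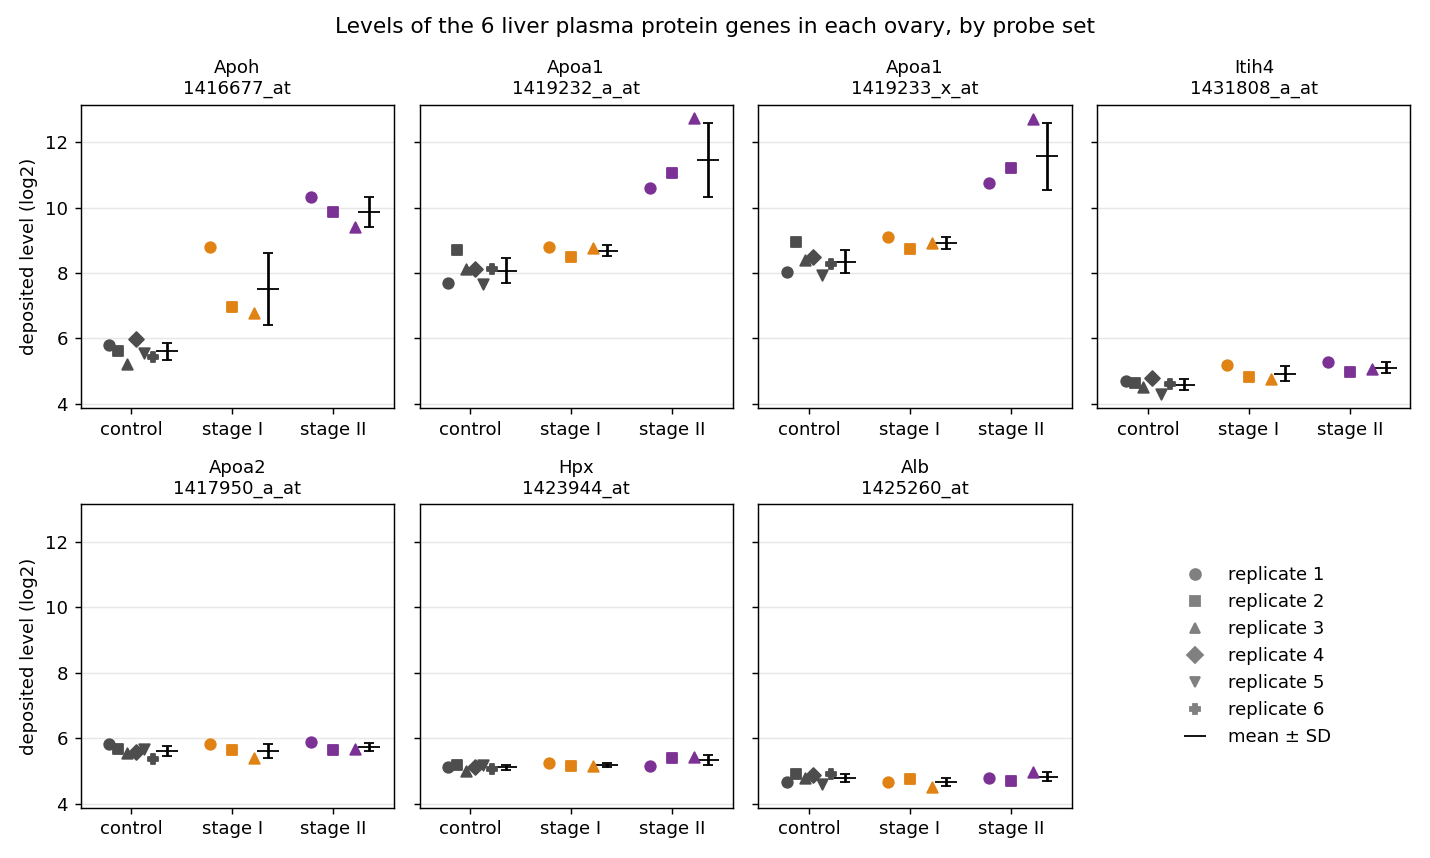
Deposited log2 level of each of the 7 probe sets (panels, common vertical axis) in every ovary, with the marker shape giving the replicate number, and the group mean ± SD beside the points (n = 6 controls, 3 stage I, 3 stage II). Apoh steps up in both stages, Apoa1 is set apart in stage II, and the Alb, Apoa2 and Hpx panels stay within 0.51 log2 units over all arrays.

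Apoh and Apoa1 were not highest in the same ovaries. Within stage II, replicate 1 had the highest Apoh (10.32) and the lowest Apoa1 (10.76), and replicate 3 the lowest Apoh (9.41) and the highest Apoa1 (12.70). Within stage I, replicate 1 was the highest in both genes. Pearson's r between both genes was 0.85 over the 12 arrays, which share the groups, and 0.02 over the 6 controls, as a description.

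**Figure D2:**
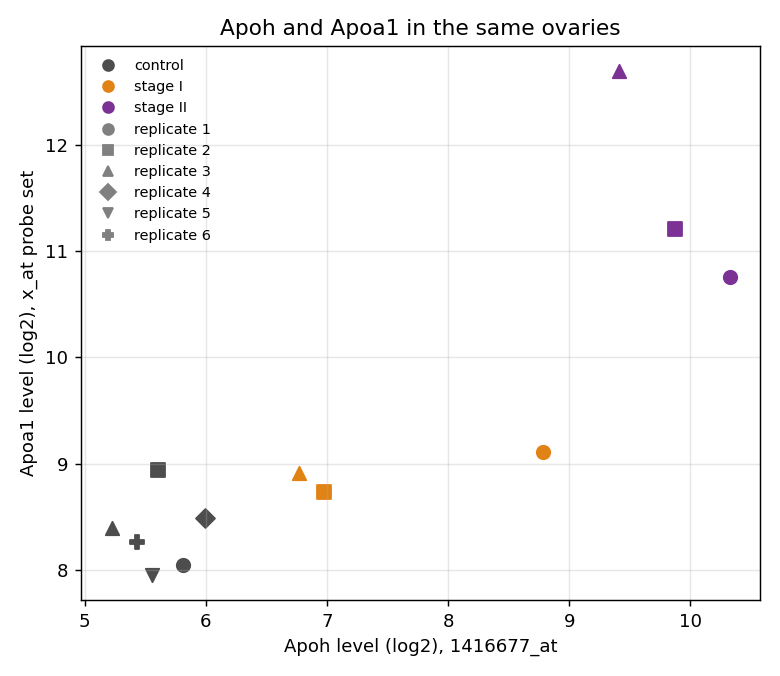
Log2 level of Apoh (horizontal) against Apoa1 (vertical, x_at probe set) in the same 12 ovaries, coloured by group and shaped by replicate number. The stage II ovaries lie in opposite order on the axes, from 10.32 and 10.76 in replicate 1 to 9.41 and 12.70 in replicate 3.

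Itih4, an inter-alpha-trypsin inhibitor heavy chain and acute-phase protein, showed a much smaller step. Controls ran from 4.30 through a median of 4.62 to 4.78, stage I stood at 5.18, 4.81 and 4.77, and stage II at 5.29, 4.97 and 5.08. Stage II lay above all controls, while the lowest stage I ovary fell just inside the control range. The differences from control were log2 0.33 ± 0.12 (SE) in stage I and 0.52 ± 0.12, or 1.43-fold, in stage II. As with Apoh, replicate 1 was the highest in both stages.

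Hpx, the heme carrier, differed by still less. Its controls ran from 5.00 through 5.12 to 5.17, stage I stood at 5.25, 5.16 and 5.15, and stage II at 5.16, 5.40 and 5.43. Stage II replicate 1 lay within the controls, and the other stage II ovaries lay above them. The stage II difference from control was log2 0.23 ± 0.07 (SE), or 1.17-fold.

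Apoa2, the partner of Apoa1 in high density lipoprotein, did not share the Apoa1 difference. Controls ran from 5.36 through 5.62 to 5.83, stage I stood at 5.82, 5.63 and 5.40, and stage II at 5.87, 5.63 and 5.68. The groups overlapped in every comparison, and the stage II difference from control was log2 0.12 ± 0.11 (SE).

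Alb, the albumin gene, overlapped between all groups as well. Controls ran from 4.59 through 4.83 to 4.91, stage I stood at 4.68, 4.76 and 4.52, and stage II at 4.79, 4.70 and 4.98. The differences from control were log2 -0.13 ± 0.09 (SE) in stage I and 0.04 ± 0.09 in stage II. Background was not measured in these values, whose lowest entry is 2.69, so at such levels a transcript near or below background cannot be told from a weakly expressed one, and the folds of Apoh, which starts at 5.60 in controls, are ratios of deposited values.

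**Figure D3:**
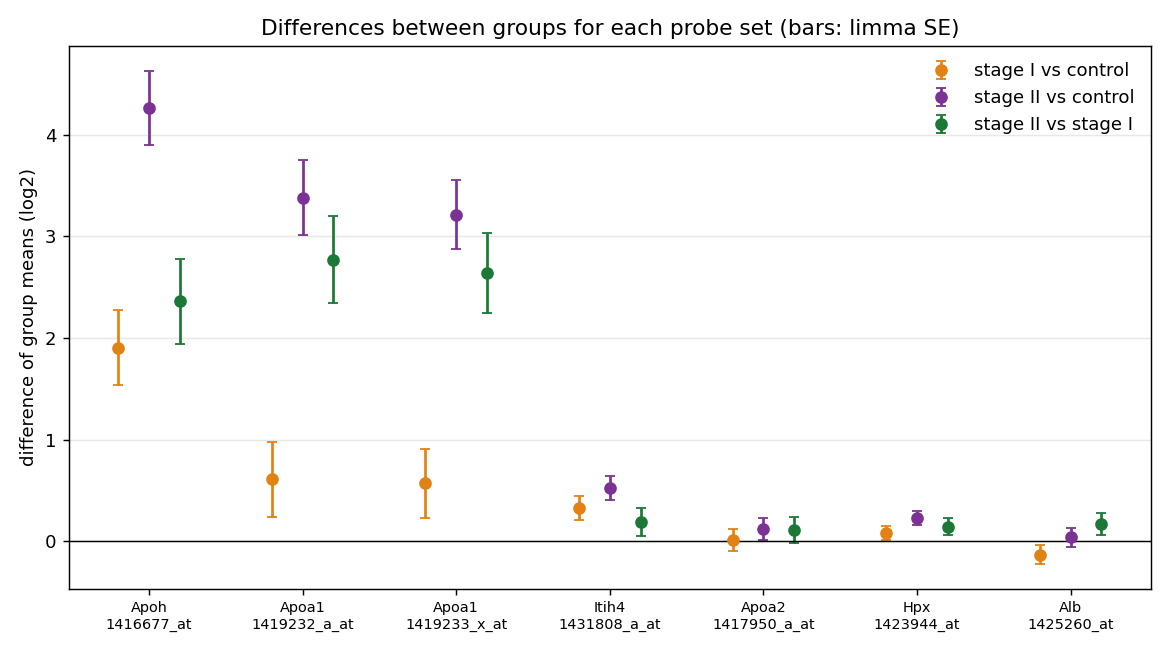
Difference of group means on the log2 scale for each probe set (horizontal axis) in the 3 comparisons (colours), with bars of 1 SE of the fit (n = 6, 3 and 3 ovaries). Stage II minus control reaches 4.26 in Apoh and 3.38 and 3.21 in the Apoa1 probe sets, against 0.04 to 0.52 in the other genes.

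Against control, 1 of the 6 members (Apoh) had stage I ovaries all above the controls, where 2.23% of all 10949 genes did so. In stage II 3 members did so (Apoa1, Apoh and Itih4), against 9.97% of all genes. By the limma fit over all genes at an adjusted p under 0.05, 0 members were called in stage I (0.192% of genes were called), 4 were called higher in stage II (Apoa1, Apoh, Hpx and Itih4, against 9.81% of genes higher), and 2 were called higher in stage II against stage I (Apoa1 and Apoh, against 6.54% of genes higher and 5.97% lower). In stage II against stage I the groups did not overlap in the same 2 members, against 14.5% of all genes lying higher without overlap. The members were chosen with these contrasts known, so nothing is read from these counts. Both stages share the same controls.

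The check gene of the allele separated the genotypes on every array, Pgr lying between 3.74 and 4.60 in controls, 9.05 and 9.28 in stage I, and 9.78 and 10.09 in stage II. Of 20 ovary markers listed, 9 were measured, and their mean level ran from 10.17 to 10.59 in controls, 10.30 to 10.64 in stage I and 8.66 to 9.78 in stage II. In stage II 8 of the 9 fell (88.9% called, against 21% of all genes). Among them were Zp3, a zona pellucida protein (log2 -0.81), and Cyp17a1, the steroid 17-hydroxylase (log2 -2.68, with 6.06 in stage II replicate 3 against 10.19 and 10.26). In whole ovaries, fewer cells of a type and less RNA per cell cannot be told apart. Stage II replicate 3, the ovary with the highest Apoa1, was also the lowest in Cyp17a1, and the part of cell makeup in the Apoa1 level was not tested.

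Among other plasma proteins of the liver, a few rose with Apoh and Apoa1 while most had values near their controls. Of 93 such genes listed, 61 were measured, and in stage II against control 5 rose and 4 fell, 14.8% called against 21% of all genes in either direction, with a median log2 difference of 0.00 (all genes, -0.01). Ceruloplasmin (Cp), the copper-carrying ferroxidase of plasma, rose 9.01-fold (log2 3.17 ± 0.29 SE, adjusted p = 1.2e-05). Serpina10, the protein Z-dependent protease inhibitor, rose 5.49-fold (adjusted p = 3.4e-05), Hgfac, the protease that activates hepatocyte growth factor, rose 5.44-fold (adjusted p = 2.4e-06), and Lrg1, a leucine-rich acute-phase glycoprotein, rose 2.81-fold (adjusted p = 0.0067).

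Cp followed the array order of Apoh in stage I. It stood at 8.26 to 9.18 in controls, at 10.88, 9.47 and 9.34 in stage I and at 12.07, 11.88 and 11.91 in stage II, with no overlap between groups. Stage I replicate 1 was likewise the highest stage I ovary in Serpina10 (6.77), Hgfac (5.77) and Lrg1 (8.14). Serpina10 stood at 8.21, 7.35 and 8.49 in stage II against 5.42 to 5.69 in controls, and Hgfac at 7.41, 7.39 and 6.94 against 4.56 to 5.01.

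Those that fell in stage II were Apoa4, an apolipoprotein of intestinal lipoproteins (log2 -1.11 ± 0.21 SE), the mannose-binding lectin gene Mbl2 (-0.70 ± 0.14), Hc, which encodes complement C5 (-0.62 ± 0.16), and Serpinf1, which encodes the anti-angiogenic protein PEDF (-0.46 ± 0.11). The fifth gene that rose, Mbl1, did so by log2 0.26 ± 0.08. The Mbl1 call was lost with array medians centred, on leaving out any of control replicates 2, 3, 5 and 6, and likewise for replicates 2 and 3 of stage II, with adjusted p reaching 0.14. Leaving out stage II replicate 3 also ended the calls of Hc (0.091 at most, here or without replicate 1) and Serpinf1 (0.059). Of the 61 genes, 52 differed from control by less than 0.5 in log2, among them F2, prothrombin (0.00, adjusted p = 0.99), Vtn, vitronectin (0.00, adjusted p = 1), Plg, plasminogen (0.10, adjusted p = 0.51), and Ambp, the bikunin precursor (0.04, adjusted p = 0.83). In controls F2, Vtn, Plg and Ambp averaged 4.93, 5.30, 4.47 and 4.75. At such low levels a transcript near or below background cannot be told from a weakly expressed one. In stage I limma called 0 of the 61, with 4 at an unadjusted p under 0.05. The largest differences there were log2 1.26 in Lrg1 (adjusted p = 0.29) and -1.26 in Serpina1b (adjusted p = 0.89).

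Genes that handle lipoproteins went both ways in stage II. Of 28 measured (38 listed) 5 rose and 6 fell, 39.3% called against 21% of all genes, with a median of -0.08. Lrp2, or megalin, an endocytic receptor for many plasma proteins and known to bind Apoh, rose 5.5-fold (log2 2.46 ± 0.24 SE, adjusted p = 2.3e-05), from 3.63 to 4.19 in controls to 6.26, 6.08 and 6.61 in stage II. Stage I overlapped the controls in Lrp2, at 5.06, 3.68 and 4.14. Genes that fell included Abca1, the transporter that loads cholesterol onto Apoa1 (-0.51 ± 0.08), Lpl, lipoprotein lipase (-0.68 ± 0.12), and Clu, apolipoprotein J (-0.77 ± 0.17), which no longer passed once replicate 3 of stage II was left out (adjusted p = 0.055). The count of 11 called became 6 without stage II replicate 1 and 7 without stage II replicate 2. Cubn, which forms a receptor for Apoa1 with its partner Amn, was at log2 -0.01 (adjusted p = 0.97), and Amn at -0.28 (adjusted p = 0.084). Their control means, 3.8 and 4.3, were low, so expression cannot be told from background. For stage I, limma called 0 of the 28, with 0 at an unadjusted p under 0.05. The largest differences there were log2 -1.32 in Lipg (adjusted p = 0.85) and -0.95 in Apof (adjusted p = 0.92).

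In the heme and iron list around Hpx, 5 of 16 measured genes (26 listed) rose in stage II and 0 fell. That was 31.2% called, against 21% of all genes, with a median of 0.11. Besides Cp, Slc39a14, a zinc and iron importer that inflammation induces in liver, rose 5.38-fold (adjusted p = 3e-06), from 7.90 to 8.26 in controls to 10.85, 10.81 and 9.91 in stage II. Abcg2, an exporter of porphyrins among other substrates, rose 1.36-fold (adjusted p = 0.0023), and Steap4, a metalloreductase, rose 1.55-fold (adjusted p = 0.026), and missed the threshold when replicate 3 of either group was left out (up to 0.16). The fifth, Hmox2, a heme oxygenase, rose 1.19-fold (adjusted p = 0.03), but missed the threshold after quantile normalization and on leaving out any of controls 2, 3 and 6, or of replicates 1 and 3 in stage II (up to 0.16). Without control replicate 3 the count was 3, and without control replicates 1 and 4 together it was 8. In stage I limma called 0 of the 16, with 3 at an unadjusted p under 0.05, and Cp was at log2 1.12 (adjusted p = 0.31). Slc39a14 was at log2 0.70 there (adjusted p = 0.32) and passed without stage II replicate 3 (adjusted p = 0.024).

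In the hyaluronan and inhibitor chain list around Itih4, 4 of 19 measured genes (23 listed) rose in stage II and 0 fell (21.1% called, against 21% of all genes), with a median of 0.04. Vcan, the hyaluronan-binding proteoglycan versican, rose 2.46-fold (adjusted p = 0.00082), from 9.73 to 10.83 in controls to 11.56, 11.69 and 12.10. Lyve1, the hyaluronan receptor of lymphatic vessels, rose 1.93-fold (adjusted p = 0.013), Cemip2, a hyaluronidase of the cell surface, 1.32-fold (adjusted p = 0.00077), and Hmmr, a hyaluronan-binding spindle protein, 1.41-fold (adjusted p = 0.018). Lyve1 missed the threshold when stage II lost its replicate 2 (adjusted p = 0.055), and Hmmr when it lost replicate 3 or when its probe sets were averaged (up to 0.058). The inhibitor chains Itih1 and Itih2 were at log2 -0.02 (adjusted p = 0.8) and 0.42 (adjusted p = 0.27). Itih1 had a low control mean of 4.36, where expression cannot be told from background, and Itih2 one of 7.42. Of these 19, limma called 0 in stage I, with 1 at an unadjusted p under 0.05.

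In the coagulation list around Apoh, Procr, the endothelial protein C receptor, rose 7.51-fold in stage II (log2 2.91 ± 0.14 SE, adjusted p = 1.3e-07). Procr stood at 8.14 to 8.90 in controls, 9.09, 9.26 and 9.05 in stage I and 11.38, 11.60 and 11.49 in stage II, with no overlap between groups. Of 23 measured genes (35 listed) 2 rose and 1 fell (13% called, against 21% of all genes), with a median of 0.00. Anxa2, a phospholipid-binding annexin that also binds Apoh, rose 1.37-fold (adjusted p = 0.034), and Plau, urokinase, fell by 0.55 on the log2 scale (adjusted p = 0.04). Leaving out control 2, control 3 or stage II replicate 3 brought the count to 1, Anxa2 and Plau both being lost. Both were lost as well on leaving out the stage II ovary of replicate 2 or controls 1 and 4 together. Anxa2 was also lost without control 5 (at most 0.19 over these settings), and Plau without control 4, with averaged probe sets and with array weights (at most 0.22). Of these 23, limma called 0 in stage I, with 2 at an unadjusted p under 0.05. Procr was at log2 0.55 there (adjusted p = 0.28) and Plau at -0.48 (adjusted p = 0.62).

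The acute-phase list holds plasma proteins of inflammation and the signalling of the interleukin 6 family. In stage II 9 of its 18 measured genes (30 listed) were higher and 0 lower, 50% called against 21% of all genes. Its median was 0.37, against -0.01 over all genes. Lifr, the receptor of leukemia inhibitory factor, rose 24.9-fold (log2 4.64 ± 0.29 SE, adjusted p = 1.1e-06), from 6.08 to 6.29 in controls to 10.80, 10.81 and 10.81. Serpina3n, a serine protease inhibitor, rose 4.83-fold (adjusted p = 2.7e-05), Lif, the ligand of Lifr, 2.2-fold (adjusted p = 0.00026), and Cebpd, a transcription factor of the acute-phase response, 3.07-fold (adjusted p = 0.00033). The 9 also count Cp and Lrg1, given above. Il6ra rose 1.18-fold (adjusted p = 0.04), a call lost in 12 alternative settings, the replicate block not counted (adjusted p up to 0.2). Not called were, among others, Hamp at log2 0.33 (adjusted p = 0.1) and Saa4 at 0.22 (adjusted p = 0.059). Orm2 was at 0.07 (adjusted p = 0.49) and Apcs at 0.03 (adjusted p = 0.8). The control means of these 4 were low, 3.11 to 4.81. In stage I limma called 0 of the 18, with 8 at an unadjusted p under 0.05. Lifr was at log2 1.35 there (adjusted p = 0.15), with 8.65 in replicate 1 against 6.75 and 7.16, and it passed without stage I replicate 1 or without stage I replicate 2 (adjusted p = 0.0055 and 0.027).

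Transcription factors known to drive liver plasma protein genes were called in both directions. Of 25 measured (33 listed) 8 were higher in stage II and 4 lower, 48% called against 21% of all genes. Their median was 0.17. Besides Cebpd, Hhex, a homeobox factor of early liver, rose 3.06-fold (adjusted p = 0.0011), and Nr1h4, the bile acid receptor FXR, rose 1.92-fold (adjusted p = 0.0089). Hnf4a, a central activator of apolipoprotein genes, rose 1.5-fold (adjusted p = 0.0033), from 6.08 to 6.54 in controls to 6.72, 6.89 and 7.09 in stage II. Gata4 fell by 0.71 on the log2 scale (adjusted p = 0.021), which no longer passed once replicate 3 of stage II was left out (adjusted p = 0.14). Without that ovary the count of 12 was 7. Foxa1 was also called higher, at 4.42, 4.53 and 4.68 in stage II against 4.22 to 4.46 in controls. That call was lost in 12 alternative settings, the replicate block not counted (adjusted p up to 0.23). The calls of Gata6, Nr2f1 and Nr2f2 were lost in 5, 9 and 6 such settings (adjusted p up to 0.18). Among those not called, Foxa2 was at log2 0.51 (adjusted p = 0.28), Foxa3 at 0.23 (adjusted p = 0.25), Onecut1 at 0.07 (adjusted p = 0.55) and Cebpa at 0.04 (adjusted p = 0.9). For stage I, limma called 0 of the 25, with 2 at an unadjusted p under 0.05.

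**Figure D4:**
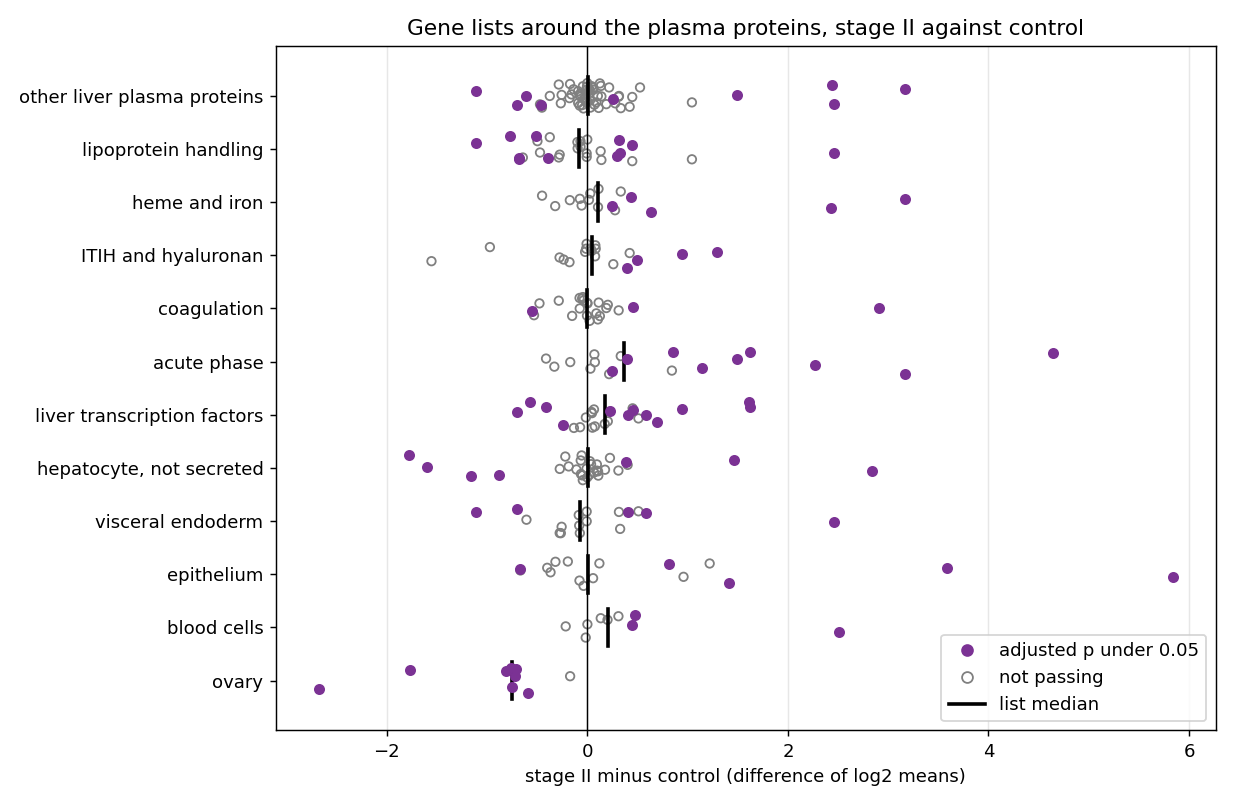
Stage II minus control, as a difference of log2 means, for every measured gene of the 12 lists (lines), with filled points for genes at an adjusted p under 0.05, open points for the rest and a bar at the list median. Most other liver plasma proteins sit near 0 (median 0.00) with Cp, Serpina10, Hgfac and Lrg1 to the right, and the ovary markers sit to the left of 0.

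The hepatocyte, visceral endoderm and epithelial markers had calls in both directions in stage II, and those of the blood cell markers were all higher. Hepatocyte genes that are not secreted had 3 higher and 4 lower of 30 measured (48 listed) in stage II. That was 23.3% called, near the 21% of all genes. Their mean level was 5.15 to 5.30 in controls, 5.17 to 5.31 in stage I and 5.17 to 5.19 in stage II. Tdo2, tryptophan dioxygenase, rose 7.17-fold (adjusted p = 0.0081) and Ttpa, the vitamin E transfer protein, 2.76-fold (adjusted p = 0.00024), while the asialoglycoprotein receptor Asgr1 (log2 -1.78, adjusted p = 0.0031) and the cytochrome Cyp2e1 (log2 -1.60, adjusted p = 0.0017) fell. Otc, of the urea cycle, and Cyp7a1, the rate-limiting enzyme of bile acid synthesis, were at -0.05 and -0.07 (adjusted p = 0.85 and 0.62). Tdo2 stood at 7.71, 5.09 and 4.20 in stage I and 6.85, 6.84 and 4.74 in stage II against 3.23 to 3.37 in controls, with stage I replicate 1 the highest as in Apoh.

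Visceral endoderm, the fetal epithelium that also secretes plasma proteins, had 3 of 17 measured markers (22 listed) higher and 2 lower in stage II. That was 29.4% called, against 21% of all genes. Of the 17, 11 also stand in other lists, and the called genes include Lrp2, Hnf4a, Apoa4 and Gata4, given above. The mean level of the list ran from 6.27 to 6.42 in controls, 6.30 to 6.40 in stage I and 6.36 to 6.44 in stage II. Without stage II replicate 3 the count of 5 called was 3. Afp, alpha-fetoprotein and the defining marker among them, was at log2 0.32 (adjusted p = 0.12), from a low control mean of 4.45. Epithelial markers had 4 of 16 (27 listed) higher and 1 lower, 31.2% called. Their list levels were 6.54 to 7.75 in controls, 7.24 to 7.88 in stage I and 7.39 to 8.06 in stage II. The median of the list was 0.01, with 8 of the 16 above 0. Tspan8 rose most, from 6.97 to 7.81 in controls to 13.30, 13.22 and 13.37 in stage II. It was also the 1 gene of the 16 called in stage I, at 12.52, 10.76 and 10.64. That was 6.25% of the list, against 0.192% of all genes. Krt8, a keratin of simple epithelia, rose 12-fold (adjusted p = 1e-05), to 12.06, 12.26 and 13.49 in stage II, with the highest value in replicate 3, as in Apoa1. The marker that fell was Lgals7, at 8.30, 8.70 and 8.15 against 8.68 to 9.44 in controls. Its call was lost without stage II replicate 1 or 3 (adjusted p up to 0.089). Blood cell markers had 3 of 9 (18 listed) higher and 0 lower, 33.3% called. Their mean level in every stage II ovary lay above that in every control. The list levels were 6.87 to 7.01 in controls, 6.99 to 7.53 in stage I and 7.30 to 7.53 in stage II. The part of each cell type in the levels of Apoh and Apoa1 was not tested.

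Genes next to the members on the chromosome were compared as well. The 3 nearest protein-coding genes on either side of each member, by the gene order of GRCm38.p6, gave 36 places, of which 26 were measured, and 2 of these rose and 4 fell in stage II against control, where 9.81% of all genes rose and 11.2% fell. Apoa1 lies in a cluster of apolipoprotein genes with Apoc3, Apoa4 and Apoa5 in this order, which were at log2 0.45 ± 0.16 (SE, adjusted p = 0.07), -1.11 ± 0.21 (adjusted p = 0.0029) and -0.07 ± 0.10 (adjusted p = 0.7). Of the genes on either side of Apoh, Prkca, a protein kinase C, was at 0.02 (adjusted p = 0.91), and Cep112, which encodes a centrosomal protein, fell by 0.20 on the log2 scale (adjusted p = 0.036), a call lost in 7 alternative settings (adjusted p up to 0.79). These were the mean of its probe sets, the fit of both groups alone, and the fits without control 2, 3 or 6 or without stage II replicate 2 or 3. Farther out, Axin2 was at 0.11 (adjusted p = 0.34), and Rgs9, a regulator of G protein signalling, rose by log2 0.56 (adjusted p = 0.00036).

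Alb showed the opposite arrangement. Its family neighbour Afm, which encodes the vitamin E-binding plasma protein afamin, rose by log2 0.89 ± 0.21 (SE, adjusted p = 0.011) while Alb itself was at 0.04. Afm stood at 5.29 to 5.54 in controls, 6.28, 5.56 and 5.59 in stage I and 6.76, 6.55 and 5.67 in stage II, with no overlap between controls and either stage. It missed the threshold when stage II lost its replicate 1 (adjusted p = 0.06). Itih1, a place away from Itih4, is given above at log2 -0.02.

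**Figure D5:**
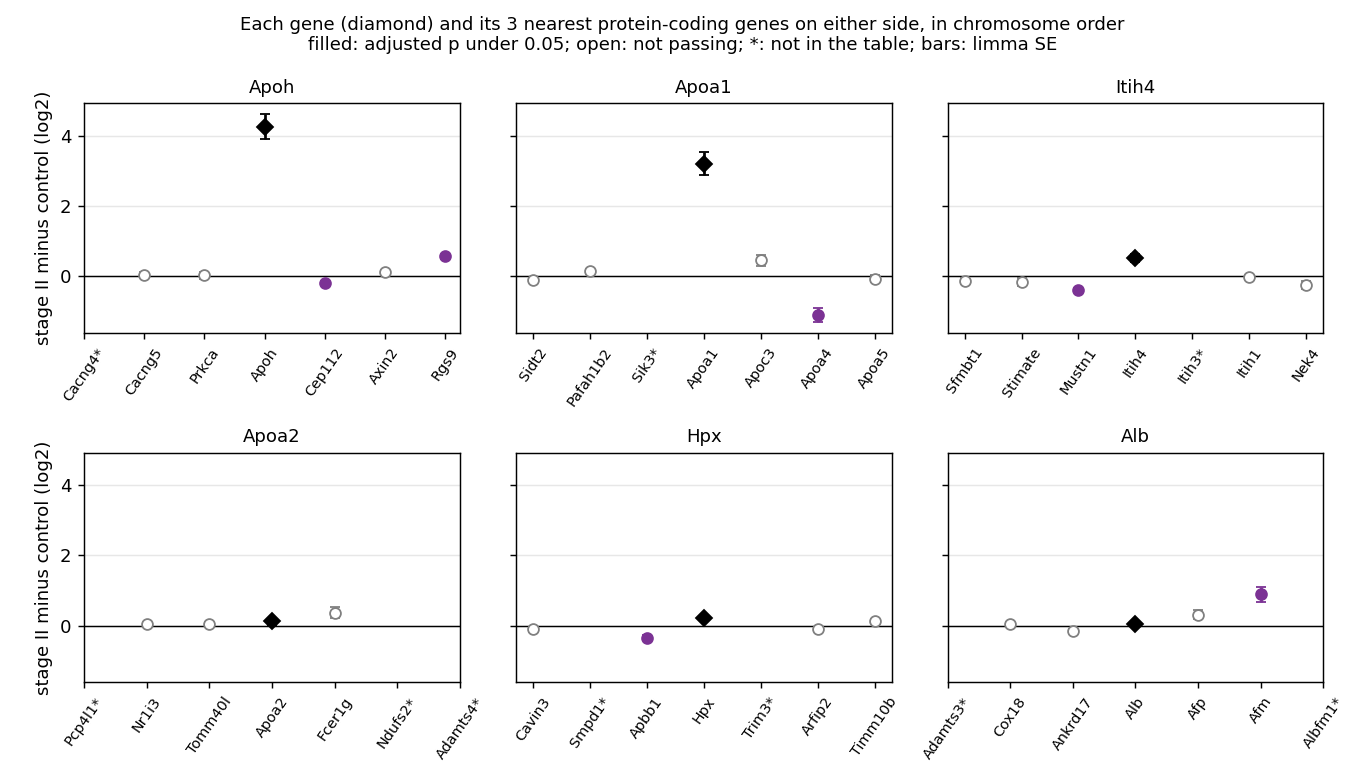
Stage II minus control on the log2 scale for each member (diamond) and its 3 nearest protein-coding genes on either side, in chromosome order with equal spacing, with bars of 1 SE. Filled points have an adjusted p under 0.05 and starred names have no value. Apoa1 at 3.21 stands beside Apoa4 at -1.11, and Alb at 0.04 near Afm at 0.89.

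Other genes followed the levels of Apoh and Apoa1 closely over the 12 arrays, all of which share the same 3 groups. The genes most like Apoh by Pearson's r of log2 levels were Aadat, an aminotransferase of kynurenine metabolism (0.988), Pdzk1ip1, a small membrane protein of epithelia (0.987), Timp2, an inhibitor of matrix metalloproteinases (0.986), Fn1, fibronectin (0.986), and Ly6d, a lipid-anchored surface antigen (0.984). Those most like Apoa1 were Tuba4a, an alpha-tubulin (0.99), Xpnpep1, an aminopeptidase (0.986), Bag2, a chaperone cofactor (0.985), Depdc7 (0.985) and Snx24 (0.984). The genes named here for Apoh and for Apoa1 had none in common. Of 10948 genes, 198 reached an r of 0.9 with Apoh and 324 with Apoa1, and the overlap of these larger sets was not examined.

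The likeness of the low members was weaker. Bcam, a laminin-binding adhesion molecule, was most like Hpx (0.949), Herc6, an interferon-induced ubiquitin ligase, most like Itih4 (0.915), Birc5, the mitotic protein survivin, most like Alb (0.92), and Osbp2, an oxysterol-binding protein, most like Apoa2 (0.884). Genes at an r of 0.9 or more numbered 6 for Hpx, 2 for Itih4, 2 for Alb and 0 for Apoa2. Alb spanned only 0.46 on the log2 scale over all 12 arrays, so its likeness rests on small differences.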

How the data were processed

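Expression was measured in ovaries with biotin as the label, on 1 array per sample, and the authors deposited 1 log2 value per probe set and array. How the arrays were summarised and normalized is not given in the sources used here. That these are log2 values rests on their range, 2.69 to 14.4, and on array medians of 7.09 to 7.15. The annotation gave 14674 of 16376 probe sets 1 gene symbol, 427 several and 1275 none, and only the first kind was used. Of these, 14632 had their Entrez identifier in the RefSeq table.

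A gene with several probe sets took the one brightest on average, which left 10949 genes. The differences and SE of every member probe set came from a fit of all probe sets with 1 symbol. Calls, and the values of all other genes, came from the fit of the 10949 genes. One model with a mean per group covered the 12 arrays in limma 3.58.1 (R 4.3.3, functions lmFit and eBayes), with Benjamini-Hochberg adjustment over all genes and a threshold of 0.05. Differences are log2 differences with the SE of the model. The 12 gene lists hold 345 genes, of which 220 were measured, and many stand in more than 1 list. The members and lists were chosen with earlier results of these data known. The scripts were tested on simulated data.

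Named genes were all members, the 5 genes most correlated with each, from each list and comparison up to 4 called genes with the largest change (or 2 where none was called), and Pgr. The text names part of these, and only the first likeness for low members. Other list genes, and genes next to the members, were named after their values were seen. Comparisons of stage II with stage I beyond the members were fitted and are given only for their sensitivity. Alternatives were quantile normalization, median centring, leaving out the dimmest 25 percent, other handling of probe sets, a replicate block, array weights, a trended robust prior, fits restricted to both groups compared, and arrays left out singly or control replicates 1 and 4 together.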

Additional observations from a re-analysis of the deposited data

Results flagged for a closer look

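Of 93 probe sets of named genes checked among the 6 controls, 3 had an ovary far from the others, where chance gives about 1 in 20 such groups. Vcan was at 9.73 in control replicate 4, with the nearest control at 10.51. Adh1, an alcohol dehydrogenase of the hepatocyte list, was at 11.72 in control replicate 1, with the nearest at 12.46. Abcg1, a cholesterol exporter of the lipoprotein list, was at 7.89 in control replicate 2, with the nearest at 8.09. No probe set of the 6 plasma protein genes was among them.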

How the results depend on the processing

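Of 435 member differences under an alternative, 429 moved by less than the spread between replicates. Those of Apoa2 in stage I and Alb in stage II lie so near 0 that their sign changed under some alternatives. The exceptions came from single arrays. With each array left out in turn, Apoh ran from 1.27 to 2.27 in stage I against control and from 1.99 to 3.00 in stage II against stage I. The Apoa1 probe sets ran from 2.75 to 3.82 (a_at) and from 2.64 to 3.61 (x_at) in stage II against control, and from 2.14 to 3.21 and from 2.07 to 3.04 in stage II against stage I. Leaving out the dimmest genes kept 3 of the 6 members (Apoa1, Apoa2 and Apoh) among 8212 genes, and gave no value for the others.

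Counts moved more. Leaving out single arrays gave 15 to 28 genes called in stage I against control, 1145 to 2432 in stage II against control and 605 to 1610 in stage II against stage I. Over the same settings the called genes in stage I against control numbered 0 to 1 in the heme and acute-phase lists. In stage II against control they numbered 6 to 12 in the lipoprotein list, 3 to 7 in heme, 1 to 4 in coagulation and 7 to 12 in transcription factors. In stage II against stage I they numbered 3 to 9 in liver plasma proteins, 2 to 9 in lipoprotein, 3 to 6 in heme, 1 to 4 in hyaluronan, 1 to 3 in coagulation and 3 to 9 in transcription factors. Quantile normalization called 5 coagulation genes in stage II against control, and gave 684 higher and 936 lower genes in stage II against stage I in place of 716 and 654. In stage II against control it gave 986 higher and 1634 lower genes in place of 1074 and 1228. Fitting stage II and stage I alone called 393 genes in place of 1370, with 4 liver plasma, 3 lipoprotein, 2 heme, 1 coagulation and 3 transcription factor genes. Array weights called 2308 genes in that comparison and 8 heme genes in stage II against control. Without control replicates 1 and 4 there were 8 heme genes in stage II against control and 13 genes in all in stage I against control. In stage I, Npl went from -0.42 to 0.0084 without those controls, and Cemip from -0.68 to 0.018 without stage I replicate 1 (down to -1.14 without replicate 3), neither being called. The cause was not tested.

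Whether the replicate numbers pair the samples was not settled. Of 9 same-numbered pairs, 3 had deviations correlated over 0.1 (range -0.13 to 0.20). In 0 of 6 stage arrays did the own number correlate best in both other groups at once. That demand is so strict that it cannot settle pairing. With the replicate block, 6 genes were called in stage I against control, 1090 in stage II against control and 602 in stage II against stage I, and 65 of 132 calls of named genes were lost. Replicate numbers 4, 5 and 6 exist only among the controls, so in this fit those controls add nothing to the differences. The block thus compares 3 arrays per group with more terms in the model, and the part of this in the lost calls was not tested. In stage II against control the block called 6 lipoprotein, 3 heme, 2 hyaluronan and 4 transcription factor genes, and in stage II against stage I it called 4 liver plasma, 5 lipoprotein, 2 heme, 1 coagulation and 2 transcription factor genes. Signal over background was not measured, which limits the members, list genes and markers at low levels.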
